A study of Mus musculus with 93 samples.

Results

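The Wnt ligands and secreted Frizzled-related proteins described here are 10 listed genes of the 24514 gene symbols in the count matrix: the ligands Wnt2, Wnt2b, Wnt3, Wnt3a, Wnt5a, Wnt5b and Wnt11, and the antagonists Sfrp1, Sfrp2 and Sfrp5. All 10 were found in the matrix. The rule that lists them uses no measured level, but the list was chosen with earlier results of these data known. Their read counts were followed in 93 RNA-seq libraries, each made from 10 sorted cells of Hcn4-GFP; Tbx1-Cre; Ai9 mouse embryos or of spheroids grown from an embryonic stem cell line of that genotype. GFP+ cells express the Hcn4 reporter of the first heart field, and RFP+ cells carry the permanent Ai9 label that Tbx1-Cre leaves in second heart field lineage cells, whether or not Tbx1 is still on. All groups carried the 3 alleles, so no wild-type cells are included. In vivo there were 5 GFP+ and 4 RFP+ libraries from dissected embryos, which the sample titles call E8.5 and the protocol E7.75. The spheroids, taken at day 5.5, gave 38 GFP+ and 46 RFP+ libraries in vitro. The labels name the induction factors of the spheroids as Activin A, Bmp4, Wnt3A, Wnt5A and Wnt11 proteins, alone or in combination, without saying which were given to the cells of these libraries. No label ties a well to an embryo or a differentiation. Each n is therefore a number of wells, and p-values measure the spread between wells, which may be technical.

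Wnt ligands are secreted, lipid-modified glycoproteins that bind Frizzled receptors and their co-receptors on the same or a neighbouring cell. Wnt3, Wnt3a and Wnt2 are best known for stabilising beta-catenin, whereas Wnt5a, Wnt5b and Wnt11 are best known for signaling without beta-catenin in cell polarity and movement. Secreted Frizzled-related proteins carry a Frizzled-like cysteine-rich domain that can bind Wnt proteins outside the cell. In the early mouse embryo Wnt3 is needed to form the primitive streak, Wnt2 is a known gene of the early heart, and Sfrp5 marks first heart field and venous pole precursors.

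Between 445071 and 5658882 reads were counted per library, apart from the in vitro GFP+ library of well C9 with 6288. In vivo, 6189 to 8302 genes were detected in a GFP+ library and 10263 to 13052 in an RFP+ library. In 7 plate rows, the in vitro RFP+ wells of columns 3 and 4 were near-identical (r from 0.976 to 0.994 between log2 CPM), and they stand as separate libraries unless stated otherwise. The titles give each library a well position but name no plate. GFP+ and RFP+ wells of the spheroids lay in different plate columns, so the effects of plate column and of population cannot be told apart. In vivo, GFP+ libraries lay in rows A to E and RFP+ libraries in rows F to H. Plate row and population cannot be told apart there either. Embryo and spheroid libraries differ in stage, culture and plate position together. Hcn4 was at 14.9 ± 16.7 and 0.3603 ± 0.7206 CPM in GFP+ and RFP+ cells in vivo (SD, n = 5 and 4), and at 7.32 ± 4.42 and 0.447 ± 0.672 CPM in vitro (SD, n = 38 and 46). Tbx1 was absent from the in vivo GFP+ libraries, at 3.96 ± 3.56 CPM in RFP+ cells in vivo, and at 0.0301 ± 0.131 and 2.52 ± 1.84 CPM in GFP+ and RFP+ cells in vitro. The summed level of 8 cardiomyocyte markers (Myh6, Myh7, Tnnt2, Actc1, Myl7, Ttn, Tnni1 and Myl4) ran from 17840 to 51880 CPM in the in vivo GFP+ libraries and from 1187 to 2275 CPM in the in vivo RFP+ libraries. In vitro its median was 52.7 CPM in GFP+ and 58.4 CPM in RFP+ libraries, so the in vitro GFP+ cells had little of the sarcomere transcripts that mark the in vivo GFP+ cells. Markers of other cell types were found among the in vivo RFP+ libraries: 8 endoderm markers summed to between 9.37 and 653 CPM, with Afp at 0, against 0 to 21.4 CPM in GFP+ libraries, where 7 of the 8 were at 0. Cldn6 and Epcam, at means of 256.9 and 64.8 CPM, carried the RFP+ sum. Sox17, Foxa1, Foxa2, Ttr and Apoa1 had means of at most 3.17 CPM there. Apoa1 ran the other way, at 0.729 CPM in RFP+ and 4.49 CPM in GFP+ libraries. Blood markers reached 787.5 CPM in in vivo RFP+ library 1 and at most 1.41 CPM in the other in vivo libraries. The endothelium markers Pecam1, Cdh5, Kdr, Tek, Tie1 and Etv2 summed to 18.8 to 306.3 CPM in in vivo RFP+ and 0 to 89.6 CPM in GFP+ libraries. Of these, Tek ran the other way, with means of 14.8 and 29.9 CPM. The neural markers Sox1, Sox2, Pax6, Nes and Sox3 summed to 21.6 to 82.9 CPM in RFP+ and 0 to 9.76 CPM in GFP+ libraries.

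The bases just upstream of the annotated start of Wnt2, Sfrp5 and Wnt3 are shown because Wnt2 and Sfrp5 were the members called different between the populations of the embryo, and Wnt3 was the ligand with the highest level per kb in the in vitro GFP+ cells. They are from RefSeq on GRCm38.p6, 5′ to 3′ on the strand of the gene, and end at the base before the first annotated exon. Wnt2 lies on the minus strand and its 110 bases are chr6:18030586-18030695. Sfrp5 is also on the minus strand, with 250 bases at chr19:42202253-42202502. Wnt3 is on the plus strand, with 225 bases at chr11:103773925-103774149. Capitals mark matches to AGATAA, a form of the GATA motif.
Wnt2: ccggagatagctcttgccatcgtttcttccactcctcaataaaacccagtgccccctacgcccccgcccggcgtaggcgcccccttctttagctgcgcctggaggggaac
Sfrp5: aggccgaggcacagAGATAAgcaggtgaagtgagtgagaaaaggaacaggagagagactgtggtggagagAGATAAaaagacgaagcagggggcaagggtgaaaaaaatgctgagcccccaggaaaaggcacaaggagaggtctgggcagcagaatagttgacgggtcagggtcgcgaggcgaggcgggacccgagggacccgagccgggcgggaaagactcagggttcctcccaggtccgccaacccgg
Wnt3: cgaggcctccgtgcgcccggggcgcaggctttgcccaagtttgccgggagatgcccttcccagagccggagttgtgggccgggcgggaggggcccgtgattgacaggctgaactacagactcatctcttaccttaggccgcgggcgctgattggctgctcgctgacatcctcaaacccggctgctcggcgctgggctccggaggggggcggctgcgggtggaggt
The windows were searched on both strands for this exact string. The search was repeated with CTTTGAT, a core of TCF/LEF sites, the factors through which beta-catenin acts. It was also run with AGGTGT, a core of T-box sites. Sfrp5 held 2 AGATAA matches, which start 236 and 180 bases before the end of the window. Among 32851 RefSeq windows of that length, 9.99% held at least 1 AGATAA match. The Wnt2 and Wnt3 windows held none of the 3 motifs as written. Other forms of these sites, such as the agatag near the start of the Wnt2 window, were not searched. The windows therefore do not show whether Wnt2 and Sfrp5 differ in GATA sites. In windows of 110 bases, the GATA, TCF/LEF and T-box motifs were held by 4.93%, 1.49% and 5.74%, and in windows of 225 bases by 9.30%, 2.96% and 10.9%. Of the 10 members, 8 had a window in the table, and Wnt5a and Sfrp1 had none. Of the remaining members, Wnt11 and Wnt5b each held a TCF/LEF match in 1 of their windows, and that Wnt5b window also held a T-box match on the other strand. Of windows of 250 bases, 3.21% held the TCF/LEF and 11.8% the T-box motif.

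Wnt2 was the Wnt ligand that set the in vivo GFP+ cells apart from every other group. The gene spans chr6:17988940-18030585 on the minus strand of GRCm38. Its level in the 5 in vivo GFP+ libraries was 806, 660.4, 1100, 1548 and 969.5 CPM, where CPM are read counts scaled to library size after TMM normalization over the 93 libraries. In the 4 in vivo RFP+ libraries it was 46.4, 17.6, 0 and 22.3 CPM. Every GFP+ library lay above every RFP+ library. The means were 1017 ± 340.1 CPM (SD, n = 5) and 21.6 ± 19.1 CPM (SD, n = 4), a ratio of 47.1. In the fit across 8503 genes, the log2 fold change of RFP+ over GFP+ cells came to -5.60 (standard error 0.82, edgeR quasi-likelihood test, adjusted p = 0.00116). The exact permutation test of log2 CPM gave p = 0.0159, the smallest it can give here.

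In the spheroids Wnt2 was near the limit of counting. GFP+ wells ran from 0 through a median of 4.74 to 27.1 CPM, and 34 of 38 had a count (89.5%, exact 95% binomial interval 75.2 to 97.1%). RFP+ wells ran from 0 through a median of 0.885 to 15.1 CPM, and 24 of 46 had a count (52.2%, interval 36.9 to 67.1%). The groups overlapped widely, but the GFP+ wells were higher on average. The means were 6.76 ± 6.30 and 2.56 ± 3.69 CPM (SD, n = 38 and 46), a ratio of 2.64 (permutation p = 8e-05, 100000 resamples). The share of wells with a count also differed (Fisher's exact p = 0.00029), and still did when every library was thinned to 440000 counts, with 29 of 37 GFP+ against 18 of 46 RFP+ wells (Fisher's exact p = 0.000385). Wnt2 did not pass the filter on low counts of the in vitro fit. The GFP+ cells of embryos therefore held 150.4 times the mean Wnt2 level of the GFP+ cells of spheroids (log2 fold change 6.999, standard error 0.36, edgeR adjusted p = 1.2e-22). For RFP+ cells the ratio of embryo to spheroid was 8.43 (log2 fold change 3.01, standard error 0.72, edgeR adjusted p = 0.000672, and 2.33 with an adjusted p of 0.0407 without in vivo RFP+ library 1). In order of level, in vivo GFP+ was followed by in vivo RFP+, in vitro GFP+ and in vitro RFP+ cells, and the permutation test did not separate in vivo RFP+ from in vitro GFP+ cells (p = 0.119).

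Sfrp5, an antagonist, had the same in vivo pattern as Wnt2. It lies at chr19:42197971-42202252 on the minus strand, directly behind the window with the AGATAA matches. The 5 in vivo GFP+ libraries held 133, 87.1, 184, 190.5 and 111 CPM, and the 4 RFP+ libraries 8.84, 5.63, 0 and 0 CPM. Again no RFP+ library reached a GFP+ library. The means were 141 ± 45.2 and 3.62 ± 4.38 CPM (SD, n = 5 and 4), with a ratio of 39.03 (log2 fold change -5.30 with standard error 1.29, edgeR adjusted p = 0.0200). The exact permutation p was 0.0159, again the smallest possible. Without in vivo RFP+ library 1, the RFP+ library with the most of both genes, the log2 fold changes were -6.18 for Sfrp5 and -6.27 for Wnt2 (edgeR adjusted p = 0.0346 and 0.00214). Unlike Wnt2, Sfrp5 was almost silent in both spheroid populations: 5 of 38 GFP+ wells had a count (13.2%, interval 4.41 to 28.1%) and 11 of 46 RFP+ wells (23.9%, interval 12.6 to 38.8%). The highest well of each group stood at 3.15 and 2.25 CPM. Neither the share of wells (Fisher's exact p = 0.27) nor the level (permutation p = 0.454) differed detectably in vitro at this depth. The GFP+ cells of embryos had a Sfrp5 level 689.5 times that of spheroids (log2 fold change 8.70, standard error 0.47, adjusted p = 8.8e-22), though the spheroid mean of 0.205 CPM rests on 17 counts in 38 wells. In RFP+ cells, the 2 embryo libraries with reads lay above the highest spheroid well and the other 2 had none (permutation p = 0.012), on 20 counts in all.

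In vivo, the cardiomyocyte markers, Wnt2 and Sfrp5 were all higher in the GFP+ than in the RFP+ libraries. Within the GFP+ libraries they did not rise together. Library 2 had the highest marker sum, at 51880 CPM, with the lowest Wnt2 and Sfrp5, at 660.4 and 87.1 CPM. Library 3 had the lowest sum, at 17840 CPM, with Wnt2 at 1100 and Sfrp5 at 184 CPM. The part of the markers in the Wnt2 or the Sfrp5 difference between the populations was not tested. In pools of cells, fewer cells of a type and less RNA per cell cannot be told apart. In vitro, 7 of the 38 GFP+ wells had a cardiomyocyte sum over 300 CPM, between 407.5 and 1267 CPM, a limit set after these sums were seen, and their Wnt2 levels ran from 2.90 through a median of 12.8 to 27.1 CPM. The other 30 wells, without C9, reached at most 98.0 CPM of those markers and had Wnt2 from 0 through a median of 4.36 to 15.8 CPM. Over 37 GFP+ wells, Spearman's rho between Wnt2 and the marker sum was 0.534. It was 0.455 for Wnt5a, 0.42 for Sfrp1 and 0.328 for Sfrp2. For Wnt2b, Wnt3, Wnt3a, Wnt5b, Wnt11 and Sfrp5 it ran from -0.23 to -0.0491. These are descriptions over wells that differ in depth and may share a plate. Sfrp5 had a count in 1 of the 7 wells and in 4 of the 30. Wells with more cardiomyocyte transcripts thus ranked higher in Wnt2, and also in Wnt5a, Sfrp1 and Sfrp2. Only 1 of the 7 wells over the limit had a Sfrp5 count.

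**Figure D1:**
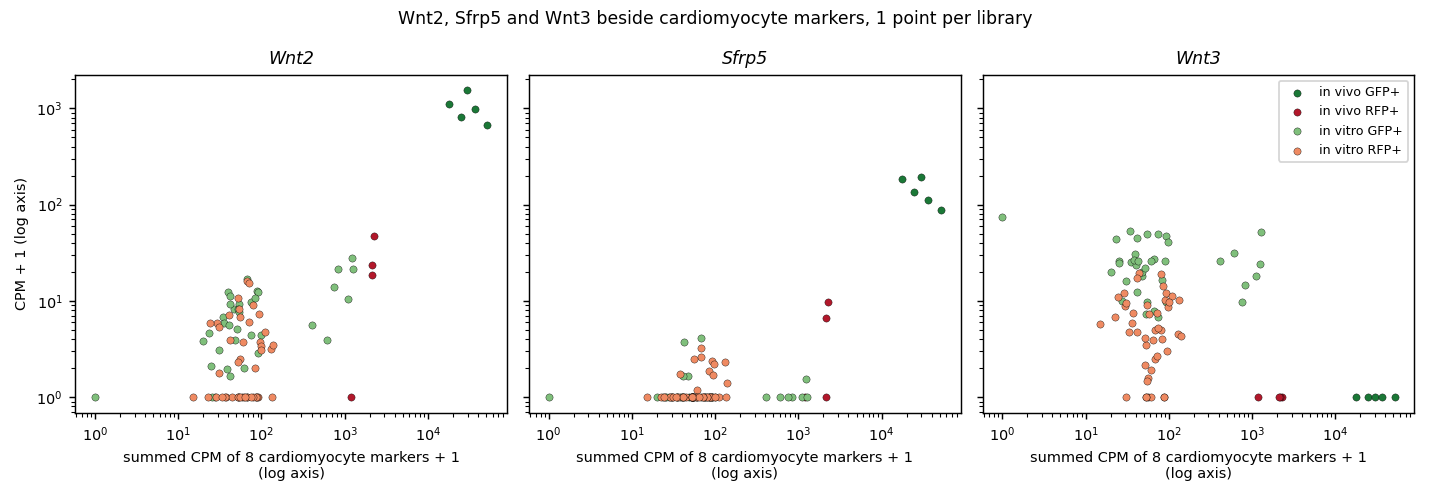
Level of Wnt2, Sfrp5 and Wnt3 (CPM + 1, log axis) against the summed CPM of 8 cardiomyocyte markers (+ 1, log axis), with 1 point per library coloured by group. The 5 in vivo GFP+ libraries stand alone at high Wnt2 and Sfrp5 and at 0 for Wnt3, while 7 in vitro GFP+ wells hold over 300 CPM of the markers.

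Wnt3, which had no read in the embryo, was the leading ligand of the spheroid GFP+ cells. The gene lies at chr11:103774150-103817957 on the plus strand. No read of it was counted in any of the 9 in vivo libraries, and a limit of 3 counts per library corresponds to a mean of 2.58 CPM for the GFP+ and 2.26 CPM for the RFP+ libraries. In vitro it was counted in 38 of 38 GFP+ wells, from 5.75 through a median of 24.1 to 73.9 CPM, the highest being the single read of well C9. In RFP+ wells it ran from 0 through a median of 3.98 to 18.3 CPM, with a count in 39 of 46. The ranges overlapped, but the GFP+ median was above the highest RFP+ well. The means were 25.8 ± 15.7 CPM (SD, n = 38; 24.5 ± 13.7 without C9) and 5.40 ± 4.86 CPM (SD, n = 46), a ratio of 4.78. In the fit the log2 fold change came to -2.23 (standard error 0.25, edgeR adjusted p = 6.6e-14). The share of wells differed less clearly, with a Fisher's exact p of 0.0146 as deposited, 0.000516 after thinning, and 0.0545 once the near-identical wells were summed.

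Compared with the embryo, Wnt3 was at least 10.0-fold higher in the GFP+ and at least 2.39-fold higher in the RFP+ cells of spheroids, against the limit of 3 counts per in vivo library. Both differences were called (edgeR adjusted p = 1.4e-10 and 0.00200). The GFP+ bound uses the mean of 25.8 CPM over all 38 wells, including the single read of well C9. Without that well the mean was 24.5 CPM, which would put the bound a little under 10.0-fold. At 0 of 5 and 0 of 4 libraries, the exact 95% intervals still allow Wnt3 reads in 52.2% and 60.2% of such libraries. In the wells with over 300 CPM of cardiomyocyte markers, Wnt3 ran from 8.63 to 51.3 CPM, and in the other 30 GFP+ wells from 5.75 to 51.6 CPM. Within the GFP+ wells the rank correlation of Wnt3 with that sum was -0.0491, and with the sum of 6 pluripotency markers (Pou5f1, Nanog, Zfp42, Dppa5a, Esrrb and Klf4) it was -0.142 (n = 37 wells each). The pluripotency sum itself was higher in the in vitro GFP+ wells, with a median of 153 against 25.8 CPM in RFP+ wells, and all 6 markers were found in at least 50% of GFP+ wells. Of the 8 endoderm markers, none at 0 in either group, 2 were found in at least 50% of GFP+ and 5 in at least 50% of RFP+ wells. Their median sum of 283 CPM in GFP+ and 97.0 CPM in RFP+ wells was carried by Cldn6 and Epcam, at means of 160.3 and 122 CPM in GFP+ and 58.2 and 28.2 CPM in RFP+ wells, while Foxa2, at 2.28 and 9.08 CPM, and Sox17, at 1.28 and 2.11 CPM, ran the other way. The part of either list in the Wnt3 difference between the populations was not tested.

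Wnt3a, the close relative of Wnt3 on the same chromosome (chr11:59248033-59290752, minus strand), ran the other way between the populations. It too had no read in the 9 in vivo libraries. In vitro, GFP+ wells ran from 0 through a median of 0 to 6.70 CPM, with a count in 15 of 38 (39.5%, interval 24 to 56.6%). RFP+ wells ran from 0 through a median of 1.84 to 18.4 CPM, with a count in 33 of 46 (71.7%, interval 56.5 to 84.0%). RFP+ cells held more Wnt3a both by share (Fisher's exact p = 0.00401) and by mean, at 3.18 ± 4.28 against 0.656 ± 1.34 CPM (permutation p = 6e-05). After thinning, 26 of 46 RFP+ and 7 of 37 GFP+ wells had a count (Fisher's exact p = 0.000657). RFP+ cells of spheroids were at least 1.41-fold above those of embryos (edgeR adjusted p = 0.0205), while the mean of the spheroid GFP+ cells lay below the in vivo limit of 2.58 CPM. Thus both ligands known for the primitive streak were found in spheroid cells and not in these embryo cells, Wnt3 more in GFP+ and Wnt3a more in RFP+ cells.

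Among the ligands known for signaling without beta-catenin, Wnt5a was found in every group without a detectable difference between the populations, and Wnt5b was higher in the RFP+ cells of spheroids. Wnt5a stood at 0, 37.03, 82.1, 0 and 132 CPM in the in vivo GFP+ libraries and at 68.5, 59.9, 17.9 and 51.2 CPM in the RFP+ libraries. Thus 2 GFP+ libraries had no read while 2 others exceeded every RFP+ library, and the groups overlapped. The means, 50.3 ± 57.0 and 49.4 ± 22.1 CPM (SD, n = 5 and 4), differed by -0.13 on the log2 scale with a standard error of 1.53 (edgeR adjusted p = 0.993), an error that leaves room for a large difference in either direction. In vitro, GFP+ wells ran from 0 through 24.2 to 41.6 CPM and RFP+ wells from 2.37 through 22.1 to 67.3 CPM (lowest, median, highest). Only the shallow GFP+ well C9 was at 0, and the next lowest held 4.40 CPM. The means of 22.2 ± 11.3 and 24.4 ± 14.6 CPM differed by 0.02 on the log2 scale with a standard error of 0.18 (edgeR adjusted p = 0.904). The in vitro fit thus limits a difference far more tightly than the in vivo fit. Wnt5a was called higher in embryos than in spheroids in GFP+ cells (log2 fold change 0.98, standard error 0.49, adjusted p = 0.0762) and in RFP+ cells (1.06, standard error 0.37, adjusted p = 0.0200). The first call was lost without in vivo GFP+ library 3 or 5 (adjusted p = 0.210 and 0.702) and the second without in vivo RFP+ library 1 (adjusted p = 0.120), and with a prior count of 2 the mean log2 CPM of in vivo GFP+ cells was below that of spheroid GFP+ cells (3.83 against 4.29, permutation p = 0.496).

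Wnt5b was found in 1 of 5 in vivo GFP+ libraries, at 12.6 CPM, and in 3 of 4 RFP+ libraries, of which the highest had 5.05 CPM. These counts did not separate the populations (exact permutation p = 0.333). In vitro, 43 of 46 RFP+ wells had a count (93.5%, interval 82.1 to 98.6%) and 27 of 38 GFP+ wells (71.1%, interval 54.1 to 84.6%; Fisher's exact p = 0.00801). RFP+ wells ran from 0 through a median of 5.25 to 35.3 CPM and GFP+ wells from 0 through 1.74 to 12.99 CPM. The mean was 7.33 ± 7.82 in RFP+ and 2.77 ± 3.23 CPM in GFP+ wells, a ratio of 2.64 (permutation p = 0.00014). Against embryos, no Wnt5b difference was called in either population of spheroid cells (edgeR adjusted p = 0.909 for GFP+ and 0.256 for RFP+ cells). The GFP+ value rested on the single library with reads, without which Wnt5b was called higher in spheroids (log2 fold change -5.42, adjusted p = 0.0101).

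Wnt11 and Wnt2b were scarce in both sources. Wnt11 was at 7.42 CPM in 1 of 5 in vivo GFP+ libraries and at 11.8 and 4.32 CPM in 2 of 4 RFP+ libraries. In vitro it was in 16 of 38 GFP+ and 28 of 46 RFP+ wells (Fisher's exact p = 0.124), with means of 0.897 ± 2.01 and 1.25 ± 1.45 CPM (permutation p = 0.0851). Wnt2b was at 12.4 CPM in 1 in vivo GFP+ library and at 4.23 CPM in 1 RFP+ library. In vitro it was in 27 of 38 GFP+ and 30 of 46 RFP+ wells (Fisher's exact p = 0.643), with means of 1.496 ± 1.386 and 1.29 ± 1.70 CPM (permutation p = 0.367). For both genes any difference between the populations was not detectable at this depth.

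**Figure D2:**
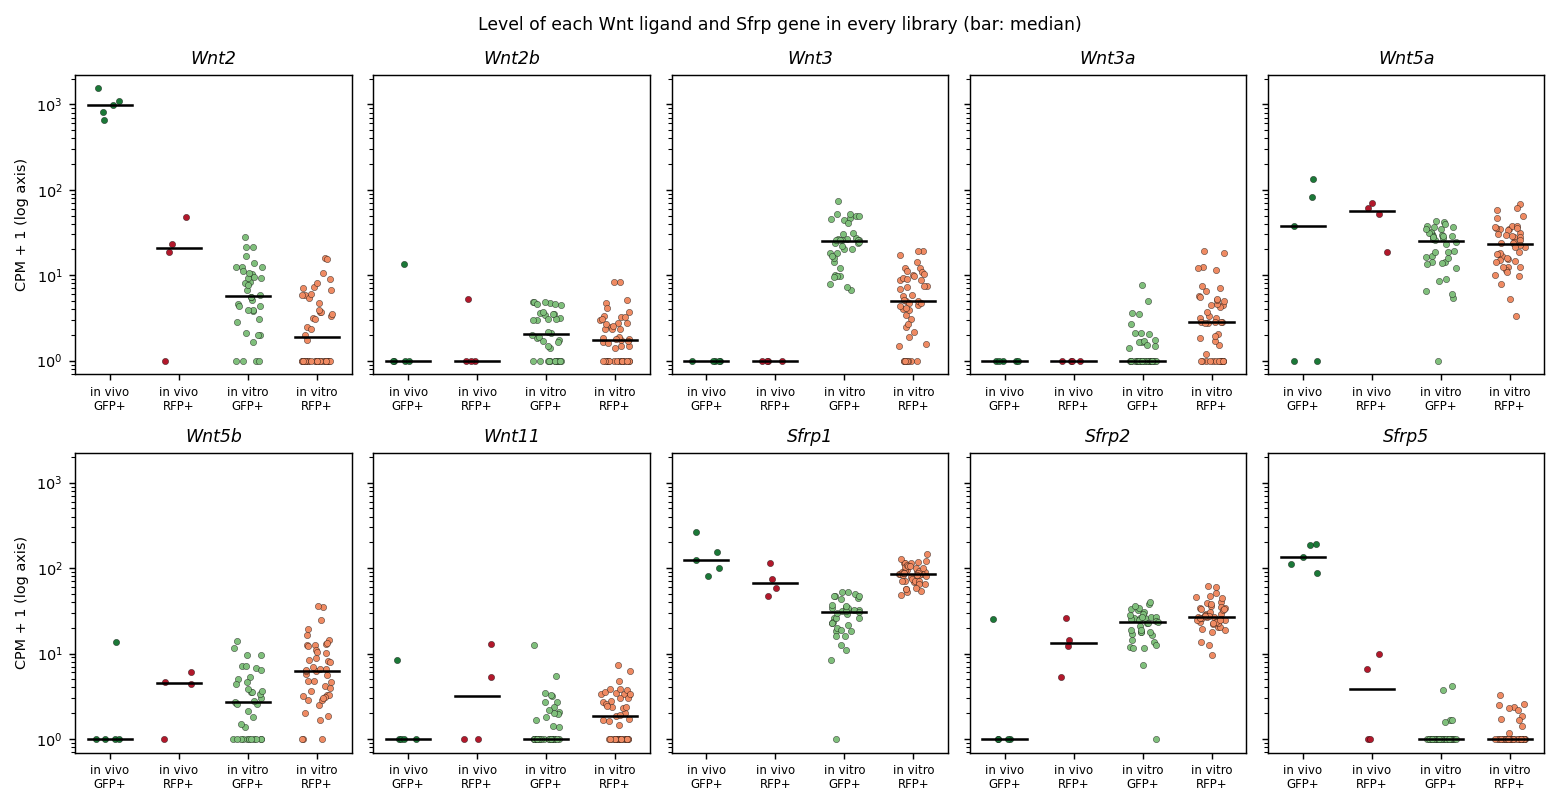
CPM + 1 on a log axis for each of the 10 genes, with 1 point per library in the 4 groups and a bar at the median. Wnt2 and Sfrp5 show 5 in vivo GFP+ libraries above all others, Wnt3 and Wnt3a have no reads in vivo, and Sfrp1 is higher in RFP+ than GFP+ cells only in vitro.

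Sfrp1 was higher in RFP+ cells in vitro and had the opposite sign in vivo, where its difference was not called. It lies at chr8:23411502-23449632 on the plus strand and encodes an antagonist widely expressed in embryonic mesenchyme. In vivo GFP+ libraries held 263, 100.2, 152, 124 and 79.5 CPM, and RFP+ libraries 56.7, 114, 74.3 and 46.1 CPM. The RFP+ library of well G11, at 114 CPM, lay above 2 of the GFP+ libraries, and otherwise the GFP+ libraries were higher. The means were 144 ± 72.0 and 72.8 ± 29.9 CPM (SD, n = 5 and 4), a difference of -1.02 on the log2 scale with a standard error of 0.60 that did not pass the test (edgeR adjusted p = 0.502, exact permutation p = 0.0635). In vitro, RFP+ wells ran from 47.9 through a median of 85.3 to 145 CPM, and GFP+ wells from 0 through a median of 29.4 to 51.3 CPM. The GFP+ well at 0 was the shallow well C9, and the next lowest stood at 7.35 CPM. Only the edges of the ranges met. The means of 86.6 ± 21.6 and 28.5 ± 12.7 CPM stood in a ratio of 3.04 (log2 fold change 1.52, standard error 0.11, edgeR adjusted p = 3.1e-24).

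The difference between these log2 fold changes, in vivo minus in vitro, was -2.54 with a standard error of 0.61 (7 degrees of freedom, adjusted p = 0.0841 over 8182 genes tested in both fits). Of all genes tested this way, 5.26% were called. When the low-count filter was dropped from both fits, 0.763% of 15069 genes were called. The Sfrp1 difference was then -2.51 (standard error 0.75) and was no longer called (adjusted p = 0.154). That fit also gave values for Wnt2, at -4.14 with a standard error of 0.79 (adjusted p = 0.120), and for Sfrp5, at -5.46 with a standard error of 1.39 (adjusted p = 0.153). Neither was called, so a Wnt2 or Sfrp5 difference that depends on the source was not shown by this test. In GFP+ cells Sfrp1 was 5.05 times higher in embryos than in spheroids, without overlap (log2 fold change 2.12, standard error 0.26, adjusted p = 1.0e-09). In RFP+ cells the levels of embryo and spheroid did not differ detectably (log2 fold change -0.24, standard error 0.19, adjusted p = 0.345). In order of mean log2 CPM, in vivo GFP+ cells came first, followed by in vitro RFP+ and in vivo RFP+ cells, which the permutation test did not separate (p = 0.165), and in vitro GFP+ cells came last.

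Sfrp2, whose product is a secreted modulator of Wnt and Bmp signaling, leaned toward RFP+ cells and toward spheroids. In vivo it had no read in 4 of the 5 GFP+ libraries and 24.2 CPM in the fifth, while all 4 RFP+ libraries had reads, at 13.3, 11.3, 4.27 and 25.2 CPM. The shares of 1 in 5 and 4 in 4 differed with a Fisher's exact p of 0.0476, which was lost without any 1 of the in vivo libraries other than GFP+ library 4, but the level did not pass (log2 fold change 1.41, standard error 1.68, edgeR adjusted p = 0.849, exact permutation p = 0.0635). In vitro, RFP+ wells ran from 8.66 through a median of 25.7 to 60.5 CPM and GFP+ wells from 0 through 22.7 to 38.7 CPM. Again the 0 was that of well C9, with 6.31 CPM in the next lowest GFP+ well. The means were 28.6 ± 11.1 and 21.6 ± 8.65 CPM (SD, n = 46 and 38), a small but called difference (log2 fold change 0.31, standard error 0.12, edgeR adjusted p = 0.0176). Sfrp2 was lower in embryos than in spheroids in both populations, at -2.18 on the log2 scale (standard error 0.58, adjusted p = 0.00107) in GFP+ and -1.05 (standard error 0.33, adjusted p = 0.0103) in RFP+ cells. The size in GFP+ cells rested on in vivo GFP+ library 4, the only library of its group with reads, without which it came to -8.35 (edgeR adjusted p = 3.2e-12).

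**Figure D3:**
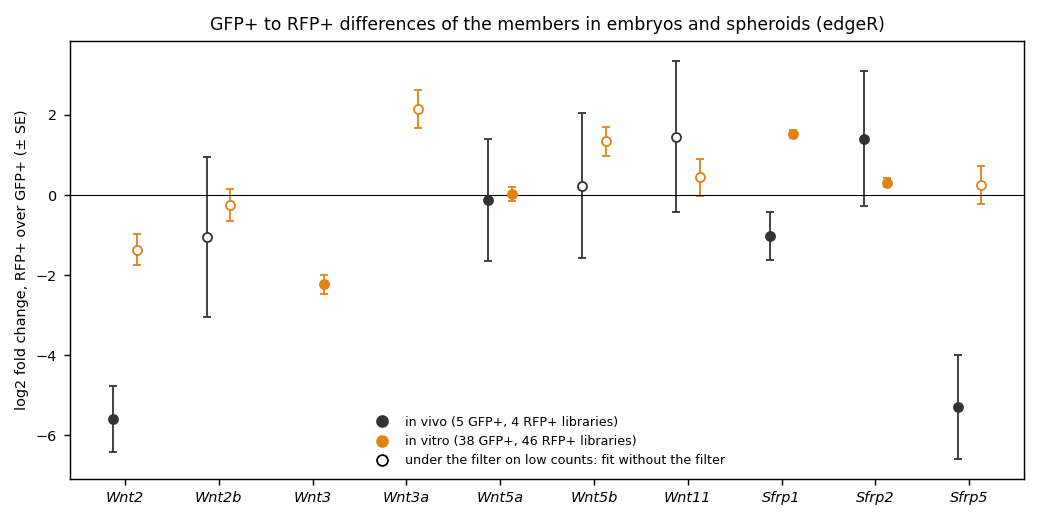
Log2 fold change of RFP+ over GFP+ cells (± standard error) for each gene in vivo and in vitro, with filled points for genes that passed the filter on low counts and open points from the fit without it. Wnt2 and Sfrp5 fall below -5 in vivo, and Sfrp1 is at -1.02 in vivo and 1.52 in vitro.

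When the populations of the embryo were compared, 5 members passed the filter and 2 of them, Wnt2 and Sfrp5, were called higher in GFP+ cells. Of all genes tested there, 3.88% were called with the higher level in GFP+ and 6.21% with that in RFP+ cells, and no member belonged to the second set. The median log2 fold change of those 5 members was -1.02, against 0.09 over all genes tested. In vitro, 4 members passed, with Wnt3 called higher in GFP+ cells, where 40.1% of all genes tested were, and Sfrp1 and Sfrp2 higher in RFP+ cells, where 37.8% were. Here the medians were 0.17 for the 4 members and -0.02 for all genes. Calls were so common in vitro that a call alone marked no member out, and the sizes are the more telling values. In GFP+ cells, Wnt2, Wnt5a, Sfrp1 and Sfrp5 were called higher in embryos, where 19.7% of all genes tested were, and Wnt3 and Sfrp2 higher in spheroids, where 48.3% were. The median over all genes was -0.67 there with TMM and -0.22 with DESeq2's size factors, so the zero point of that comparison depends on the scaling, and the genes called higher in embryos and in spheroids numbered 2326 and 5710 with TMM but 3473 and 4687 with the size factors. The 6 called members kept their direction and their call with the size factors. In RFP+ cells, Wnt2 and Wnt5a were called higher in embryos (20.1% of all genes tested) and Wnt3, Wnt3a and Sfrp2 higher in spheroids (22.5%). A gene that passes the filter through the group where it is high has little room not to differ, so these counts describe the members and do not weigh them against other genes.

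**Figure D4:**
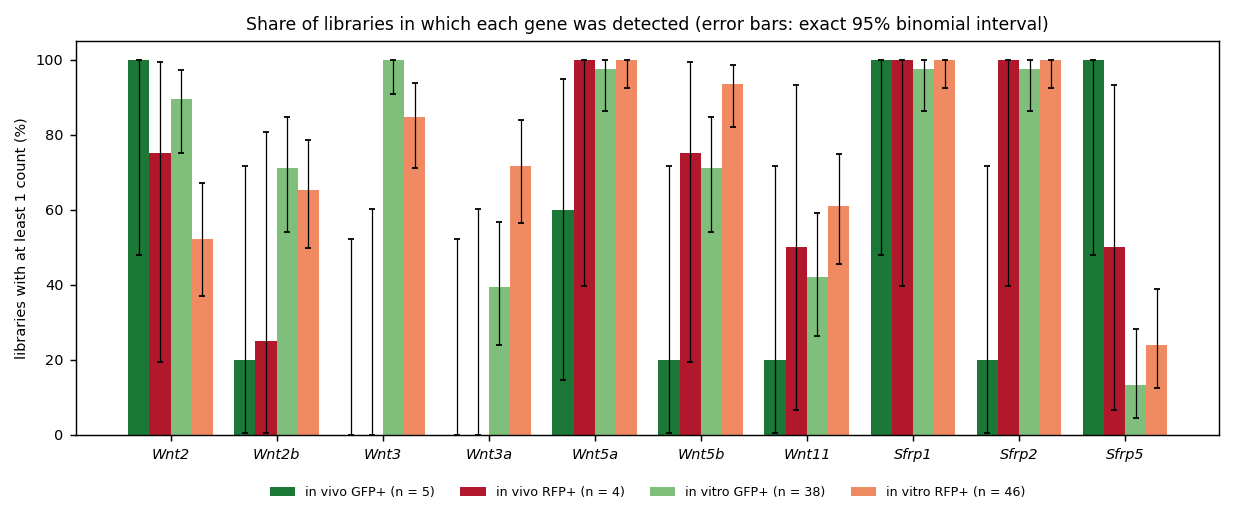
Percentage of libraries with at least 1 count of each gene in the 4 groups, with exact 95% binomial intervals. Wnt3 is at 100% of in vitro GFP+ wells and 0% in vivo, and Sfrp5 at 100% of in vivo GFP+ libraries and 13.2% of in vitro GFP+ wells.

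Taken per kb of annotated exon, so that levels can be set beside each other, Wnt2 made up 98.2% of the Wnt ligand signal of the in vivo GFP+ cells. This sum covered the 7 members and 12 other Wnt ligands of the matrix and came to 459 CPM per kb, and Wnt2 was the top ligand in 5 of 5 libraries. Wnt5a followed at 1.4%, and none of the 12 other ligands had a read. In the in vivo RFP+ cells the sum was 20.7 CPM per kb, with 46.2% from Wnt2, 30.5% from Wnt5a and 11.9% from the other ligands. Thus the Wnt ligand total of in vivo GFP+ cells was nearly all Wnt2, and outside this population no single ligand held most of it.

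In the in vitro GFP+ cells the sum was 22.6 CPM per kb, and Wnt3 led with 37.2%, ahead of Wnt2 at 13.3% and Wnt5a at 12.5%. Wnt3 was the top ligand in 29 of 38 wells. In the in vitro RFP+ cells the sum was 14.6 CPM per kb, shared among Wnt5a at 21.3%, Wnt5b at 18.9%, Wnt8a, which is no member, at 13.6%, Wnt3 at 12.0% and Wnt3a at 7.87%. Wnt5a was on top in 14 of 46 wells, so the leading ligand changed from well to well. The 7 members together gave 71.2% and 72.0% of the sums in GFP+ and RFP+ cells.

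**Figure D5:**
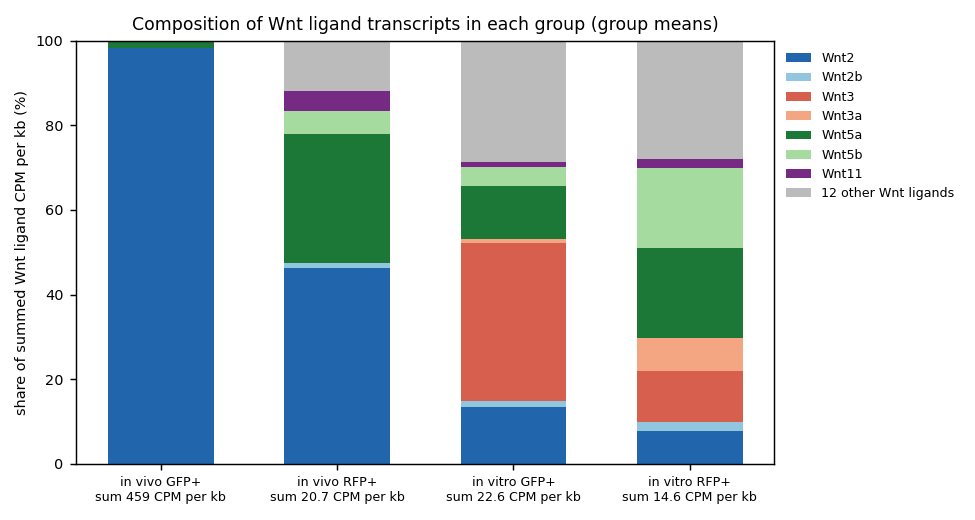
Share of the summed CPM per kb of 19 Wnt ligands (group means) that each member and the 12 other ligands gave in each of the 4 groups. Wnt2 fills 98.2% of the in vivo GFP+ bar, and Wnt3 is the largest piece of the in vitro GFP+ bar at 37.2%.

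The same sum over the secreted Frizzled-related genes, Sfrp1, Sfrp2, Sfrp5, Sfrp4 and Frzb, showed Sfrp5 with 67.2% and Sfrp1 with 29.7% in the in vivo GFP+ cells. In the in vivo RFP+ cells Frzb, which is not a member, gave 45.5%, Sfrp1 36.5%, Sfrp2 13.8% and Sfrp5 4.18%. In vitro, Sfrp2 led in GFP+ cells with 49.0%, ahead of Sfrp1 with 31.8%, while in RFP+ cells Frzb led with 41.8%, ahead of Sfrp1 with 34.6% and Sfrp2 with 23.2%. Sfrp1 thus held about the same share of the sum in every group, and the share of Sfrp5 varied most, from 0.241% to 67.2%. These shares rest on group means and were not tested.

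The spread between wells of 1 in vitro group was larger than counting error for every member. The SD over wells was 3.54 times the value expected from counting alone for Wnt3 and 3.05 times for Wnt2 in GFP+ wells, and 3.43 times for Wnt5b and 3.36 times for Wnt5a in RFP+ wells. The lowest ratios were those of Wnt2b in GFP+ wells, at 1.43, and Sfrp5 in RFP+ wells, at 1.27. These ratios leave out libraries under 500000 counts, and reads without molecular identifiers are not independent molecules. The genes whose level across wells was most like that of a member were listed for members found in at least 80% of the wells of a group. The lists of Wnt2 and Wnt5b are given here as examples. For Wnt2 in GFP+ wells they were the cell cycle genes Cdk1, Plk1 and Cdca3, with Spearman's rho of 0.715, 0.707 and 0.704 over 37 wells. For Wnt5b in RFP+ wells they were Fgf17, Etv5 and Pou5f1, at 0.639, 0.619 and 0.560 over 39 wells after near-identical wells were summed. In the lists not given in full, the highest rho ran from 0.533 to 0.644. Those of Wnt5a in GFP+ wells and of Wnt3 and Sfrp2 in RFP+ wells were led by Acat2 (0.644), BC068281 (0.642) and Ubqln4 (0.633). Between pairs of members, rho ran from -0.366 to 0.379 within a group of wells. The wells differ in depth and may share a plate, and the values are descriptions with the top of 8919 and 8416 genes ranked.

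Other genes of the pathway were taken from hand-made lists. None of the 12 other Wnt ligands passed the filter in either comparison of the populations. In vivo, 1 of 9 tested receptors and co-receptors was called, Ror1, a receptor for Wnt5a, at 35.2 ± 12.9 CPM in RFP+ and 0.218 ± 0.488 CPM in GFP+ cells, at least 13.7-fold higher in RFP+ cells (edgeR adjusted p = 0.0163). Among targets and feedback genes, 1 of 5 tested was called: Axin2, a feedback inhibitor that beta-catenin induces, had no read in the GFP+ and 11.9 ± 2.55 CPM in the RFP+ libraries, at least 4.61-fold higher (edgeR adjusted p = 0.00829). A link between the levels of Wnt2 and Axin2 was not tested. Fewer genes were detected in the in vivo GFP+ libraries (6189 to 8302) than in the RFP+ libraries (10263 to 13052), which limits what a lack of reads shows. Among all genes tested in vivo, 6.21% were called higher in RFP+ cells. The 2 secretion genes Porcn and Wls and the 2 tested antagonists outside the members were not called in vivo.

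In vitro, all 3 tested antagonists outside the members were called higher in RFP+ cells, as were 7 of 10 receptors and 7 of 9 targets, while 2 receptors and 2 targets were called higher in GFP+ cells. Over all genes tested in vitro, 37.8% were called higher in RFP+ and 40.1% in GFP+ cells. Frzb, a secreted Frizzled-related protein, stood at 77.5 ± 20.2 in RFP+ and 12.0 ± 11.2 CPM in GFP+ cells (log2 fold change 2.58, standard error 0.18, edgeR adjusted p = 3.9e-25). Cer1 and Dkk1, inhibitors of Nodal, Bmp and Wnt ligands and of Wnt co-receptors, had log2 fold changes of 2.17 and 0.75. The receptor genes Fzd2 and Fzd5 changed in opposite directions, by 1.49 and -1.54. The primitive streak gene T, a Wnt target, was at 61.1 ± 28.5 in RFP+ and 17.5 ± 18.2 CPM in GFP+ cells (log2 fold change 1.68, edgeR adjusted p = 6.0e-10). Wls, which carries Wnt proteins to the cell surface, rose slightly in RFP+ cells (log2 fold change 0.18, edgeR adjusted p = 0.0161). The median over the tested genes of these lists was 2.17 for antagonists, 0.81 for receptors and 0.70 for targets, against -0.02 over all genes tested.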

How the data were processed

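The authors sorted 10 cells per well, amplified cDNA from polyadenylated RNA and made 1 RNA-seq library per well. The submitters' processing notes name Trimmomatic 0.36, HISAT2 2.0.4, featureCounts 1.5.2 and mouse genome mm10 (GRCm38). The deposited values are raw read counts per gene symbol, without normalization, from 6288 to 5658882 per library. Whether counting used strand is not given in the sources used here. Exons of Sfrp2, Wnt5a and Wnt11 overlap antisense genes or a pseudogene on the other strand over 347, 358 and 364 bases, so reads of these cannot be told apart. No molecular identifiers are described for the reads, and intervals and floors cover counting error only.

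Groups came from the sample titles and labels. Within each source GFP+ and RFP+ libraries, and within each population embryo and spheroid libraries, were compared with edgeR 4.0.16 in R 4.3.3 (TMM, filterByExpr with minimum count 10, minimum total 15 and minimum proportion 0.7, trended dispersion, quasi-likelihood F-test), with Benjamini-Hochberg adjustment over all genes tested and calls at an adjusted p under 0.1. Standard errors are the log2 fold change over the root of F. The difference of the population fold changes used separate standard errors with 7 degrees of freedom. Log2 CPM with a prior count of 2 were compared by two-sided permutation tests, exact over 126 assignments in vivo (smallest p 0.0159) and with 100000 resamples elsewhere (smallest p 2e-05), in 60 tests. Wells with at least 1 count were compared by two-sided Fisher's exact tests, 20 in all. Both sets of p-values are unadjusted. Lengths and positions are from GENCODE M21 on GRCm38, in which 96.79% of symbols were found. A group at 0 to 3 counts in every library was set to 3 counts per library, and the fold given as a lower bound.

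All 10 members are named. From the other lists, genes called in vivo and the 3 with the largest changes called in vitro could be named. The likeness lists hold the 3 genes of highest rho of at least 0.5, among those with a mean of at least 10 CPM. The members and lists were chosen with earlier results of these data known. Scripts were tested on simulated counts. Alternatives covered DESeq2 1.42.0, its size factors or total counts in edgeR, no filter on low counts, an adjusted p under 0.05, 1 fit over the 4 groups, near-identical wells summed, libraries under 500000 counts left out, a prior count of 0.5, detection at 3 counts, thinning to 440000 counts and omission of every in vivo library in turn. Chosen after seeing the data were the difference test without a filter or without each in vivo library, the in vivo detection test without each in vivo library, and near-identical wells summed in the RFP+ source comparison and the permutation tests.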

Additional observations from a re-analysis of the deposited data

Results flagged for a closer look

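In 5 of the 16 in vivo groups of libraries whose members' levels varied, 1 library stood far from the rest by Dixon's test. In each of these 5 groups all libraries but 1 had no read, so the test had to flag the library with reads. The test's chance rate of about 1 in 20 groups is therefore no measure for such counts, and the flags only list where the reads fell. Wnt2b was at 12.4 CPM in in vivo GFP+ library 3 and at 4.23 CPM in in vivo RFP+ library 2. Wnt5b was at 12.6 CPM in in vivo GFP+ library 2, Wnt11 at 7.42 CPM in in vivo GFP+ library 5, and Sfrp2 at 24.2 CPM in in vivo GFP+ library 4.

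The log2 fold change of Sfrp1 between RFP+ and GFP+ cells differed between embryos and spheroids by -2.54 (adjusted p = 0.0841). Leaving out each in vivo library in turn kept the difference between -2.84 and -2.24, with unadjusted p from 0.00327 to 0.0131. Embryo and spheroid differ in stage, culture and plate position. Population goes with plate column in vitro and with plate row in vivo, so the source of the difference cannot be told apart.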

How the results depend on the processing

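Over all genes, 858 of 8503 tested were called in vivo. The alternatives called 1936 of 10967 with DESeq2, 2000 of 15111 without a filter and 7115 of 12655 with 1 fit over the 4 groups. The in vivo calls of Wnt2 and Sfrp5 held under every alternative run, with 2 members called under DESeq2, both other scalings, no filter, an adjusted p under 0.05 and without any 1 in vivo library. With 1 fit over the 4 groups, 4 of 8 members tested were called, beside the 7115 of 12655 genes. Sfrp1 (adjusted p = 0.0128) and Sfrp2 (adjusted p = 0.0532) were added, and the cause was not tested. In vitro, DESeq2, no filter on low counts and 1 fit over the 4 groups each called 6 members against 3, because Wnt2, Wnt3a and Wnt5b were then tested. The members tested were 10, 10 and 8. Over all genes these alternatives called 10737 of 16322, 13109 of 21827 and 8804 of 12655, against 7747 of 9940 in the main fit. Calls were thus common among all genes as well. The difference test without a filter called 0 members against 1, with 3263 of 15069 genes at an unadjusted p under 0.05. Without in vivo GFP+ library 4 the exact permutation test passed for Sfrp2 in vivo (p = 0.0286), and without RFP+ library 2 for Sfrp1 (p = 0.0357), where edgeR also called Sfrp1 lower in embryo than in spheroid RFP+ cells (-0.55, adjusted p = 0.0525). With DESeq2 the embryo to spheroid log2 fold changes in GFP+ cells were 9.29 for Sfrp5 and 1.57 for Wnt5a. Summing near-identical wells changed no edgeR call of a member. The share of wells with Sfrp2 in vivo passed an unadjusted 0.05 in 0 to 1 members when 1 library was left out. Values near 0 that were not called changed sign: Wnt5a in vivo to 0.0096 without a filter (-0.46 to 0.64 when 1 library was left out), Wnt5a in vitro to -0.0087 without libraries under 500000 counts, Wnt5b in GFP+ cells against spheroids to 0.050 with DESeq2 and 0.17 with its size factors (-5.42 to 0.16 when 1 library was left out), and Wnt2b in vivo on log2 CPM (-0.71 to 0.55 when 1 library was left out). Of 372 values of single members under alternatives, 348 kept direction and side of the threshold. These include the in vivo permutation values of Wnt3 and Wnt3a, which had no read and could not change. Of 70 counts of members under alternatives, 57 stayed at or near the main count and 13 moved away from it. No paired analysis was possible because the labels give wells no replicate number shared between groups. Few in vivo libraries and few reads per gene limit what could be seen for Wnt2b, Wnt5b, Wnt11, Wnt3 and Wnt3a.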

Other observations

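Wnt3 and Wnt3a each have another Wnt ligand as a close neighbour on chromosome 11, Wnt9b 24.3 kb from Wnt3 and Wnt9a 16.2 kb from Wnt3a in GENCODE M21. These neighbours, chosen after their values were seen, did not share the levels of the members beside them. In the in vitro GFP+ cells Wnt9a had a count in 35 of 38 wells at a mean of 5.10 CPM, where Wnt3a had a count in 15. In the in vitro RFP+ cells Wnt9a had a count in 15 of 46 wells at 0.660 CPM, where Wnt3a had a count in 33. Wnt9b was at 0.306 and 0.159 CPM in GFP+ and RFP+ cells in vitro, while Wnt3 was in nearly all wells. Other ligands with a marked level in vitro were Wnt4 and Wnt7b in GFP+ cells (6.87 and 6.33 CPM, in 36 and 33 of 38 wells) and Wnt16 in RFP+ cells (3.91 CPM, in 43 of 46 wells against 2 of 38 GFP+ wells). Wnt8a was at 3.47 CPM in RFP+ cells (36 of 46 wells) and at 2.24 CPM in GFP+ cells (28 of 38 wells). In the embryo, Wnt4, Wnt7b and Wnt9a had no read in any GFP+ library, and Wnt7b and Wnt9a had none in any RFP+ library. These values were not tested.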
